A study of Mus musculus with 4 samples.

Results

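Mitochondrial ribosomal protein genes were examined in differentiating C2C12 cells, a mouse myoblast line that leaves the cell cycle and fuses into myotubes when serum is lowered. Members were taken by symbol alone, as every gene whose symbol is Mrpl or Mrps followed by a number and at most 1 letter, on probe sets annotated with a single symbol. This gave 76 genes of 18193 on the array, 47 named for the large subunit (Mrpl) and 29 for the small subunit (Mrps). Each gene was represented by the probe set with the highest mean signal over the 4 arrays. All 76 had a mean signal at or above that of the median gene (178.8) and were among the 9097 genes tested. Mrpl30 and Mrpl53 appeared only on probe sets that name several genes and were not included.

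The mitochondrial ribosome translates the few messages encoded by mitochondrial DNA, which specify core subunits of the respiratory chain complexes and of ATP synthase. Its RNAs come from mitochondrial DNA, whereas all of its proteins are encoded in the nucleus, made in the cytosol and imported. Some are homologs of bacterial ribosomal proteins and others were acquired by mitochondria. Making new mitochondrial ribosomes, with assembly factors, synthetases and translation factors, accompanies the growth of the respiratory system in differentiating muscle.

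Of the 4 arrays, 1 per sample, 2 came from cells given vehicle (control 1 and control 2), 1 from cells given tranylcypromine (TC) and 1 from cells given S2101, a compound named by its code. Both compounds are labelled as inhibitors of LSD1 (Kdm1a), a flavin-dependent histone demethylase. All cells had been expanded in 10% fetal bovine serum at 25 mM glucose, then induced at the same glucose in 2% horse serum together with an inhibitor or vehicle, and RNA was taken 48 h later. The labels state no dose, and whether the vehicle arrays came from separate cultures is not stated. The p-values therefore rest on the scatter of these 4 arrays, and that between the vehicle arrays may be technical in part or in full. Where both inhibitors are set against vehicle, the scatter also holds the difference between TC and S2101.

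The values are MAS5 signals, the linear brightness of a probe set, and each array had a 2% trimmed mean of 500. Array medians lay between 63.4 and 75.1, and no array stood apart. All 8 skeletal muscle markers were past the brightness filter on these arrays, among them Myog, Des and Acta1, whereas 0 of 3 adipocyte, 0 of 3 endothelial and 0 of 2 osteoblast markers were. Of 4 markers each, 1 leukocyte gene (Cd14) and 1 neuronal gene (Nefl) passed the filter. Differences below are on a log2 scale after adding 50 to each signal, and ± gives the standard error from limma. A gene is said to have risen or fallen where its Benjamini-Hochberg adjusted p over all 9097 genes was under 0.05. In such bulk RNA, a lower signal per cell and fewer cells carrying a message cannot be told apart.

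The first comparison set both inhibitor arrays (n = 2) against both vehicle arrays (n = 2). A single member rose, Mrps6 of the small subunit, and 0 fell, 1 of 76 in all. Of all 9097 tested genes 8.01% passed the test, 4.28% higher and 3.74% lower. Before adjustment, 6 of 76 members had a limma p under 0.05, beside 22.3% of all tested genes. These were Mrpl33, Mrpl47, Mrpl34 and Mrpl39 of the large subunit and Mrps6 and Mrps31 of the small subunit.

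The subunits were alike in their centre. The median difference was 0.01 over the 47 large subunit genes and 0.02 over the 29 small subunit genes, beside 0.01 over all tested genes. Differences of single members ran from -0.28 (Mrpl33) to 0.33 (Mrps31). A difference of at least 0.2 in either direction was seen in 8 of 76 members and in 29.1% of all tested genes, and one of at least 0.5 in 0 of 76 members and in 4.88% of all tested genes. The members were also more even between the vehicle arrays themselves, where 8 of 76 differed by at least 0.2, or 10.5%, beside 19.2% of all tested genes. For 72 of 76 members the 95% confidence interval of the inhibitor difference lay within 0.5 of 0, and for 48 within 0.3 of 0.

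**Figure D1:**
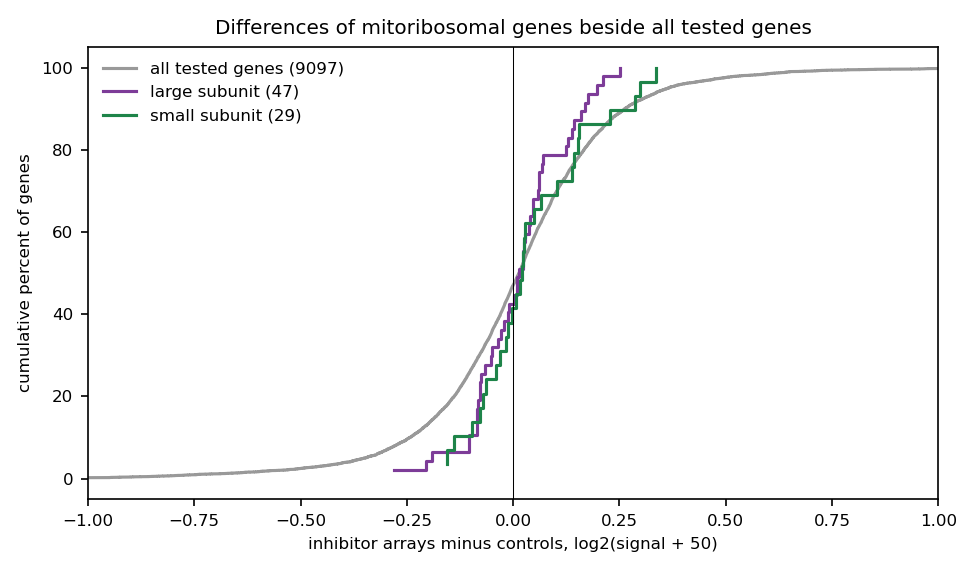
Cumulative percent of genes (y axis) against the difference of inhibitor arrays from vehicle arrays in log2(signal + 50) (x axis, cut at 1 either way), for all 9097 tested genes (grey), 47 large subunit genes (purple) and 29 small subunit genes (green). Both subunit curves are steeper than the grey curve and lie between -0.28 and 0.33.

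Each compound was also set against vehicle alone. With TC, Mrps6 and Mrps31 rose and Mrpl33 fell, 3 of 76 members beside 8.18% of all tested genes (4.36% higher and 3.81% lower). S2101 gave 0 of 76 members past the limma test beside 6.71% of all tested genes. Before adjustment 12 members had a limma p under 0.05 with TC, beside 23.6% of all tested genes, and 4 with S2101, beside 20.8%. With 1 array per compound, the spread comes from the vehicle pair and is taken to hold for TC and S2101 too. Both comparisons use the same vehicle arrays.

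Sequences upstream of the 3 genes that passed a test are shown first. They are RefSeq sequences of build GRCm38.p6, from 130 bases before the annotated start of transcription through the first 20 bases of the transcript, all on the + strand. Capitals mark matches to GCGCATGC, the letters searched for NRF1, and CCGGAAG, the letters searched for ETS factors such as GABP, both factors known for nuclear genes of mitochondrial proteins. Mrpl33 lies at chr5:31613821-31613970, Mrps31 at chr8:22411210-22411359 and Mrps6 at chr16:92058206-92058355.
Mrpl33: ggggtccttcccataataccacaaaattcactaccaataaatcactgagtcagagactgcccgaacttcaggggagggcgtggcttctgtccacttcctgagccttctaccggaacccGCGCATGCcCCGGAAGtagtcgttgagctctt
Mrps31: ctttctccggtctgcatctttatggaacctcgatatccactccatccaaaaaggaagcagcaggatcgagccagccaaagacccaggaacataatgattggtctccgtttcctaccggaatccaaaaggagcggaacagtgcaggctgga
Mrps6: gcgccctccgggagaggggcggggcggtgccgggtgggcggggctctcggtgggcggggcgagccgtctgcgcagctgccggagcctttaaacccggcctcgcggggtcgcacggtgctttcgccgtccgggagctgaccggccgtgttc
In Mrpl33 the NRF1 match begins at -12 and the ETS match at -3 from the start site. The stretches of Mrps31 and Mrps6 hold no match to any of the 5 motifs searched. Whether a match goes with the direction of a gene was not tested. A match is a description of letters and not a measured binding site.

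Mrps6 encodes the mitochondrial counterpart of bacterial ribosomal protein S6, on the platform of the small subunit. Its signals were 2358 and 2449.8 on the vehicle arrays, 3010.1 with TC and 2878 with S2101. Both inhibitor arrays lay above both vehicle arrays. The difference was 0.29 ± 0.075 (limma adjusted p = 0.0452), with 0.32 ± 0.081 for TC (adjusted p = 0.0435) and 0.26 ± 0.081 for S2101 (adjusted p = 0.108). Another probe set of the gene past the filter gave a difference of 0.26, with signals of 1170.03 and 1325 for vehicle, 1519 for TC and 1473 for S2101. The call of the inhibitor comparison was narrow: its limma adjusted p was 0.248 without control 1, 0.142 without control 2 and 0.111 without the TC array, and 0.108 with no filter on dim genes. Its TC call was lost with no filter (limma adjusted p = 0.205) and without the intensity trend (0.181).

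Mrps31, a small subunit protein with no bacterial counterpart, had signals of 689.8 and 663 with vehicle, 944 with TC and 794 with S2101. The groups did not overlap, and TC was the highest array. Its difference was 0.33 ± 0.11 (limma adjusted p = 0.0983) for both inhibitors, 0.45 ± 0.12 for TC (adjusted p = 0.0477) and 0.22 ± 0.12 for S2101 (adjusted p = 0.341). The TC call was lost with no filter on dim genes (limma adjusted p = 0.215), without the intensity trend (0.104) and in the mean over probe sets (0.228).

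Mrpl33, the counterpart of bacterial L33 near the exit site of the large subunit, went the other way. Its signals were 3934 and 3517 with vehicle, 2847 with TC and 3274 with S2101, so that both inhibitor arrays were below both vehicle arrays and TC was the lowest. The difference was -0.28 ± 0.090 (limma adjusted p = 0.0909), with -0.38 ± 0.089 for TC (adjusted p = 0.0305) and -0.18 ± 0.089 for S2101 (adjusted p = 0.286). A dim probe set of the gene, under the filter, gave 0.43, and the mean over both probe sets was 0.08 and not called. Its TC call, too, was lost with no filter on dim genes and without the intensity trend.

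**Figure D2:**
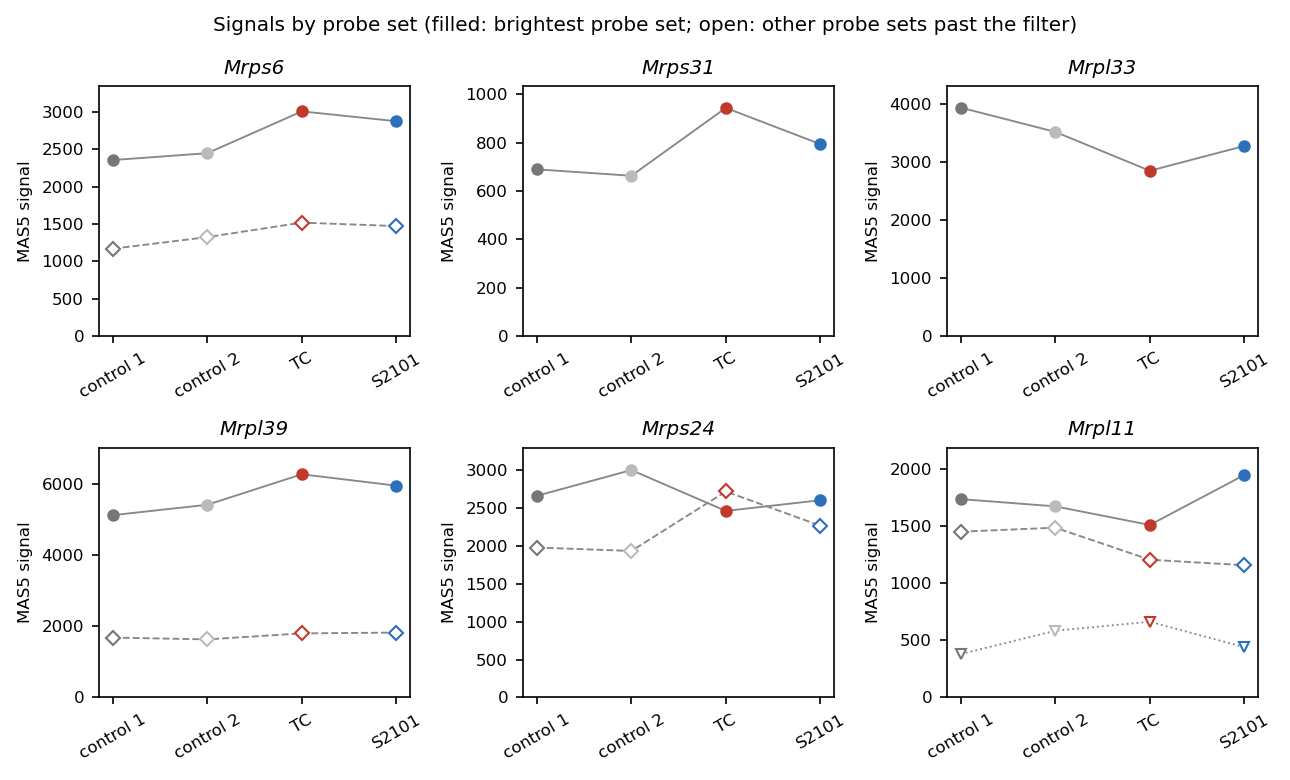
MAS5 signal (y axis, linear, from 0) on the 4 arrays (x axis) for 6 members, with the brightest probe set filled and other probe sets past the filter open. Both probe sets of Mrps6 and of Mrpl39 are higher with the inhibitors, whereas those of Mrps24 and of Mrpl11 part between vehicle and inhibitor arrays, and levels of different probe sets are not comparable.

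Among the other large subunit genes, the highest differences were those of Mrpl37, Mrpl39, Mrpl34, Mrpl46 and Mrpl55, and none passed the test. Mrpl39, a mitochondria-specific protein, had 5126 and 5417 with vehicle, 6275 with TC and 5954 with S2101, without overlap, and a difference of 0.21 ± 0.070 (limma adjusted p = 0.0996). Its other bright probe set gave 0.13. Mrpl37, likewise without a bacterial counterpart, had 448 and 550.4 with vehicle, 717 with TC and 503 with S2101, so that only the TC array lay outside the vehicle pair. Its difference was 0.49 ± 0.15 for TC (limma adjusted p = 0.0879) and 0.02 ± 0.15 for S2101 (adjusted p = 0.974). Mrpl37 passed the TC test where all probe sets of every gene were averaged.

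Mrpl34, homologous to bacterial L34, differed by 0.20 ± 0.085, Mrpl46 by 0.18 ± 0.10 and Mrpl55 by 0.17 ± 0.13, with limma adjusted p-values from 0.208 to 0.506. Signals of Mrpl55 were 575 and 530.3 with vehicle, 715 with TC and 549 with S2101, and its positive value came from the TC array. Without that array its difference was -0.01.

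At the other end of the large subunit stood Mrpl33, Mrpl47, Mrpl40, Mrpl1 and Mrpl12. Mrpl47 had 1386 and 1292 with vehicle, 1169 with TC and 1139 with S2101, a difference of -0.21 ± 0.088 (limma adjusted p = 0.20). Mrpl40 had 1104 and 1186 with vehicle, 999.8 with TC and 994 with S2101, a difference of -0.19 ± 0.091 (adjusted p = 0.255). In both genes the inhibitor arrays lay below the vehicle arrays and almost level with each other. Mrpl12, whose bacterial counterpart forms the flexible stalk that recruits translation factors, was level with vehicle in TC (-0.0008) and lower in S2101 (-0.21 ± 0.082, limma adjusted p = 0.188). Mrpl1, homologous to a protein of the other stalk, differed by -0.10 ± 0.13.

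In the small subunit the 5 highest differences belonged to Mrps31, Mrps18b, Mrps6, Mrps18a and Mrps5. Mrps5, the counterpart of bacterial S5, differed by 0.15 ± 0.11, with 638 and 581 for vehicle, 647 for TC and 721 for S2101. The lowest were Mrps11, Mrps24, Mrps15, Mrps35 and Mrps22, from -0.16 to -0.08, with limma adjusted p-values from 0.315 to 0.690. Mrps11, the counterpart of bacterial S11, had 673 and 599.9 with vehicle, 625 with TC and 509.6 with S2101, and the S2101 array alone lay outside the vehicle pair (-0.29 ± 0.14, adjusted p = 0.263). Mrps35 and Mrps22, both mitochondria-specific, were near vehicle in TC and lower in S2101, by -0.20 and -0.18.

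**Figure D3:**
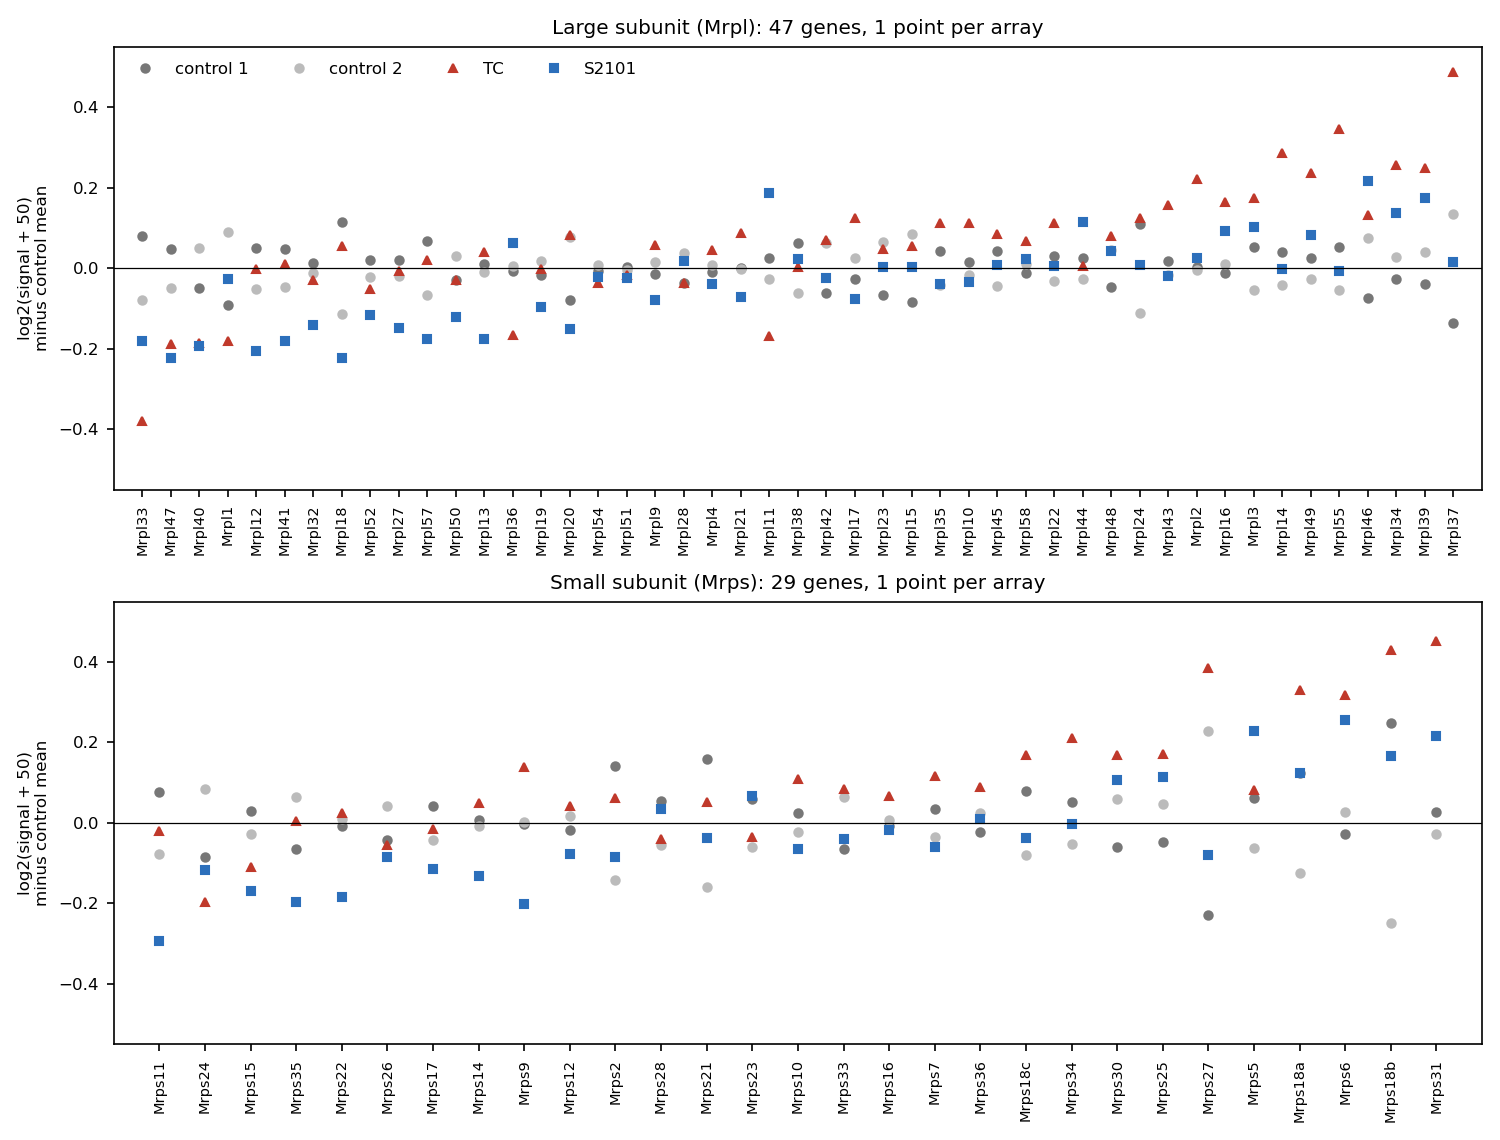
Difference of each array from the mean of the vehicle arrays in log2(signal + 50) (y axis) for the 47 large subunit genes (top) and the 29 small subunit genes (bottom), ordered by the inhibitor difference (x axis). Points are single arrays, grey for vehicle, red triangles for TC and blue squares for S2101, and most red triangles stand above the blue squares of the same gene.

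The S18 family has 3 members here, whose proteins take different places in the mitochondrial ribosome. Mrps18c, the closest to bacterial S18, differed by 0.07 ± 0.093, and its sign turned without control 2 and without the TC array. Mrps18b had 991 and 687 with vehicle, 1129.9 with TC and 933 with S2101, so that the vehicle arrays spanned the S2101 value, and it differed by 0.30 ± 0.16 (limma adjusted p = 0.296). Without control 1 Mrps18b was at 0.55 and passed the inhibitor test (limma adjusted p = 0.0161), whereas Mrps6 did not, and without control 2 Mrps18b was at 0.05. Mrps18a, which sits in the large subunit despite its name, had 2189 and 1837 with vehicle, 2536 with TC and 2190.0 with S2101, a difference of 0.23 ± 0.10 (adjusted p = 0.234). Mrps30, another protein of the large subunit under a small subunit name, differed by 0.14 ± 0.097, and Mrps36, known as a component of the 2-oxoglutarate dehydrogenase complex, by 0.05 ± 0.080.

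The members were also split by origin of the protein, with Mrpl47 counted as the homolog of bacterial L29. Over the 45 homologs of bacterial proteins the median inhibitor difference was 0.002, and over the 31 mitochondria-specific proteins and S18 paralogs it was 0.05. In the large subunit the medians were 0.008 for 29 bacterial homologs and 0.03 for 18 others. Within the small subunit they were -0.007 for 16 bacterial homologs, 7 of them positive, and 0.10 for 13 others, 10 of them positive. Those 13 include Mrps18a, Mrps30 and Mrps36, and without these 3 genes the median was 0.06 with 7 of 10 positive. With S2101, 14 of 45 bacterial homologs and 16 of 31 others lay above the vehicle mean. TC and S2101 lay beyond both vehicle arrays on opposite sides in 15 of 45 bacterial homologs (33.3%) and in 2 of 31 others (6.45%), beside 12.8% of all tested genes. These counts and medians carry no test.

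The inhibitor arrays were ordered one way in most members. The TC array exceeded the S2101 array in 63 of 76 members (82.9%), in 38 of 47 large and 25 of 29 small subunit genes, beside 54% of all tested genes. TC was the highest of the 4 arrays in 42 members (55.3%, beside 31.1% of all tested genes) and S2101 the lowest in 32 (42.1%, beside 25.8%), and both held in 15 (19.7%, beside 7.41%). Relative to each gene's own mean, the median member stood at 0.06 on the TC array and -0.05 on the S2101 array, with both vehicle arrays between them at -0.001 and -0.005. Both inhibitors lay above both vehicle arrays in 14 members (18.4%, beside 27.6%) and below both in 10 (13.2%, beside 23.4%).

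The size of that offset was small. The median of TC minus S2101 was 0.09 in the large and 0.13 in the small subunit, beside 0.02 over all tested genes, and 0 of 76 members passed the limma test of TC against S2101, as did 0.033% of all tested genes (3 of 9097). Before adjustment 6 members had a p under 0.05, beside 8.71% of all tested genes. The largest positive values were 0.47 ± 0.18 in Mrpl37 (limma adjusted p = 0.511) and 0.47 ± 0.26 in Mrps27, a dim gene with 161 and 239.9 for vehicle, 273 for TC and 184 for S2101. The largest negative values were -0.36 ± 0.10 in the chosen probe set of Mrpl11 (adjusted p = 0.426), whose 2 other probe sets past the filter gave 0.06 and 0.54, and -0.23 ± 0.12 in Mrpl36 (adjusted p = 0.623). In Mrpl18, at 0.28 ± 0.12, the S2101 signal (1762) was below the vehicle signals of 2240.1 and 1904 and the TC signal was 2147. Doses are not given, so these values compare the arrays as deposited.

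Other probe sets of the members did not show the offset to the same extent. Besides the chosen probe sets, 37 others of 25 members were past the filter, and in these TC exceeded S2101 in 19 (51.4%), with a median of 0.0009. In the chosen probe sets of the same 25 members it did so in 18 (72%), with a median of 0.06, and in those of the other 51 members in 45 (88.2%), with a median of 0.13. Over the other probe sets of all genes the share was 47.3% and the median -0.01. With the probe sets of each gene averaged, 50 of 76 members were higher in TC, beside 48.1% of all genes. Over the 64 members past a filter at the 75th percentile gene, 55 were higher in TC, beside 60.3% of all genes of that brightness.

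**Figure D4:**
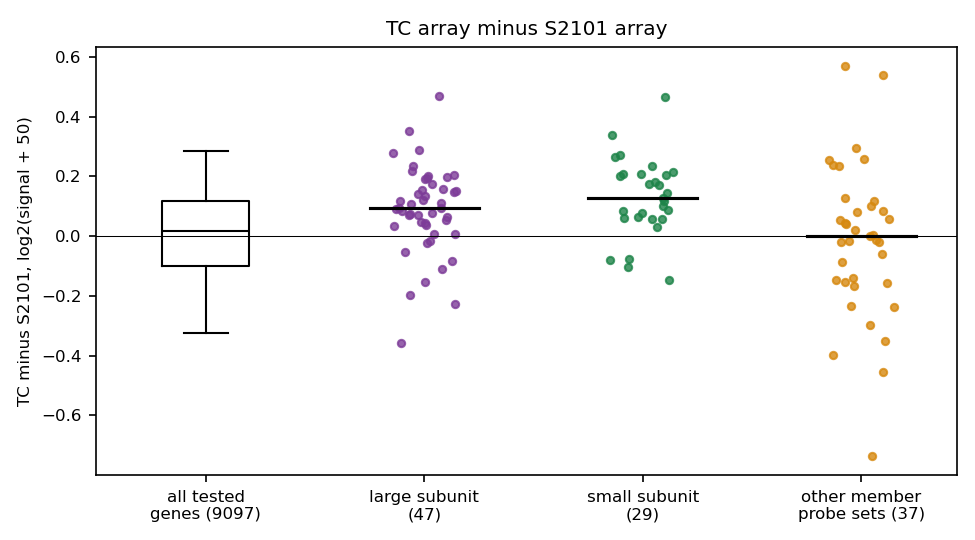
TC array minus S2101 array in log2(signal + 50) (y axis) for all 9097 tested genes (box from the lower to the upper quartile, whiskers from the 5th to the 95th percentile), 47 large and 29 small subunit genes and 37 further probe sets of the members, with bars at the medians. The medians are 0.09 and 0.13 for the subunits and 0.0009 for the further probe sets.

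Probe sets of one member often disagreed about the inhibitor difference as well. Of 25 members with more than 1 probe set past the filter, 11 had values of opposite sign. The range within a gene had a median of 0.10 and reached 0.57 in Mrpl28, with -0.01, 0.56 and 0.07. Mrpl3 had 0.14 and -0.31. Mrps24, the counterpart of bacterial S3, had -0.16 in its brightest probe set and 0.34 in the other, whose signals were 1977 and 1931 with vehicle, 2715 with TC and 2264 with S2101. Mrpl11, at the base of the stalk, had 0.01, -0.30 and 0.18 in its 3 probe sets past the filter. Mrps15 had -0.14 and 0.09. Probe sets can report different transcripts of a gene, and which transcript each reports was not tested.

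Of the promoters of the members, 67 of 76 genes were found in the RefSeq table, with 73 windows from 250 bases before to 50 after a start. On either strand, CCGGAAG was present in 34.2% of member windows, 18.7% of the windows of tested genes and 8.86% of all windows. AAGATGGCG, searched for YY1, was present in 11%, 3.34% and 1.4%, and GCGCATGC in 11%, 5.68% and 2.71%. CACGTG, the E-box bound by MYC and other factors, was no more frequent in member windows (9.59%) than in those of tested genes (10.3%), and TATAAA occurred in 6.85% and 7.07%. CCGGAAG and AAGATGGCG can overlap in the letters AAG, which they did in 0 member windows and in 0 of all 32851 windows. Members with an ETS match had a median inhibitor difference of 0.02 (25 genes), as did those without (42 genes). The medians with and without an NRF1 match were 0.03 (8 genes) and 0.02 (59 genes). For TC alone they were 0.07 with and 0.08 without an ETS match, and 0.11 with and 0.07 without an NRF1 match. With CACGTG (5 genes) the median was 0.07 for both inhibitors and 0.17 for TC. Without it (62 genes) the medians were 0.02 and 0.07. The TC medians were 0.09 with and 0.08 without AAGATGGCG, and 0.08 both with and without TATAAA. These medians carry no test.

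Many members are divergent neighbours of another gene. A start on the opposite strand within 500 bases upstream was annotated for 32.9% of member windows, beside 16.4% for tested genes and 9.84% for all. Of the 22 members concerned, 14 had a partner that was itself tested, with starts 42 to 308 bases apart. These partners include Mrpl46 and Mrps11, themselves members. With both inhibitors, TC and S2101, 0 of 14 passed the limma test, beside 8.01%, 8.18% and 6.71% of all tested genes. At such shares a list this short holds few genes past the test. In the inhibitor comparison 0 of 14 had an unadjusted limma p under 0.05, beside 22.3% of all tested genes. Mrpl46 and Mrps11 face each other with starts 42 bases apart and differed by 0.18 and -0.16 in the inhibitor comparison. Mrpl43 and Twnk, the mitochondrial DNA helicase, start 116 bases apart and differed by 0.07 and 0.21.

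Other lists of the mitochondrial translation apparatus were read beside the 8.01% of all tested genes past the inhibitor test, a share at which lists this short hold few such genes. Of 4 tested mitoribosomal proteins with other symbols 0 passed, with Dap3 of the small subunit at -0.10 and Gadd45gip1 of the large subunit at 0.05. Of 13 translation factors 0 passed, with Oxa1l, which inserts new proteins into the inner membrane, at 0.38 ± 0.15 (limma adjusted p = 0.153, and 0.0349 without control 1) and the release factor Mtrf1l at -0.20. Of 27 assembly and rRNA modification factors 0 passed, with the small subunit assembly factor Rbfa at 0.28 ± 0.16 and the rRNA methyltransferase Nsun4 at 0.25 ± 0.098. Of 14 genes of mitochondrial transcription and DNA maintenance 0 passed, with Twnk at 0.21 and the elongation factor Tefm at 0.16. Before adjustment, limma p-values under 0.05 numbered 0, 1, 2 and 0 in these lists, beside 22.3% of all tested genes, and the medians ran from -0.02 to 0.03.

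A few single genes passed. Fars2, the mitochondrial phenylalanyl-tRNA synthetase, had 431 and 467 with vehicle, 619.9 with TC and 713 with S2101 and rose by 0.52 ± 0.12 (limma adjusted p = 0.0232), 1 of 15 tested synthetase genes. Its limma adjusted p was 0.0711 without control 1, 0.103 without the S2101 array, 0.112 with no filter on dim genes and 0.0890 with probe sets averaged. Rbfa rose with TC, by 0.54 ± 0.13 (limma adjusted p = 0.0394), and was at 0.03 ± 0.13 with S2101. Among 9 tested regulators known for mitochondrial genes, Myc alone passed. Its signals were 653 and 630.04 with vehicle, 378 with TC and 397 with S2101, and it fell by 0.66 ± 0.11 on the log2 scale (limma adjusted p = 0.0053). Ppargc1b, a coactivator of mitochondrial biogenesis, was at 0.44 ± 0.13 (limma adjusted p = 0.0647) and Gabpa, the DNA-binding subunit of GABP, at 0.18 ± 0.088.

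Genes of the cytosolic ribosome lay mostly below 0. Over 45 tested cytosolic ribosomal protein genes the median inhibitor difference was -0.09, and 2 of 45 values were positive. The values ran from -0.57 to 0.01. For each compound against vehicle the median of these genes was -0.05 with TC and -0.12 with S2101. Of the mitochondrial members 44 of 76 (57.9%) were positive, near the 52.9% of all tested genes. In the inhibitor comparison Rpl37 alone of the cytosolic ribosomal protein genes fell, by 0.53 ± 0.068 on the log2 scale (limma adjusted p = 0.0013). That is 1 of 45, beside 3.74% of all tested genes lower. Signals of Rpl37 were 6089 and 5983 with vehicle, 4073 with TC and 4244 with S2101. Its probe set is of a type (x_at) that can take up signal from related transcripts. Of 20 genes of cytosolic ribosome biogenesis the nucleolar factors Nop56 and Gar1 fell, by 0.49 ± 0.087 (limma adjusted p = 0.0068) and 0.32 ± 0.080 (adjusted p = 0.0396), and the median was -0.13. With 2 of 20 genes past the test this list, like the first, is too short to set apart from the 3.74% of all tested genes that fell. The call of Gar1 was lost without control 1, without control 2, without the S2101 array, with no filter on dim genes and without the intensity trend (limma adjusted p from 0.0822 to 0.229). Like the members, cytosolic ribosomal protein genes were mostly higher with TC than with S2101, in 36 of 45 cases with a median of 0.09. Cell cycle and replication genes, a list known from earlier work on these data to move, had a median of -0.85, with all 11 values below 0 and 10 of 11 past the test. The difference between the ribosome lists was not tested.

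**Figure D5:**
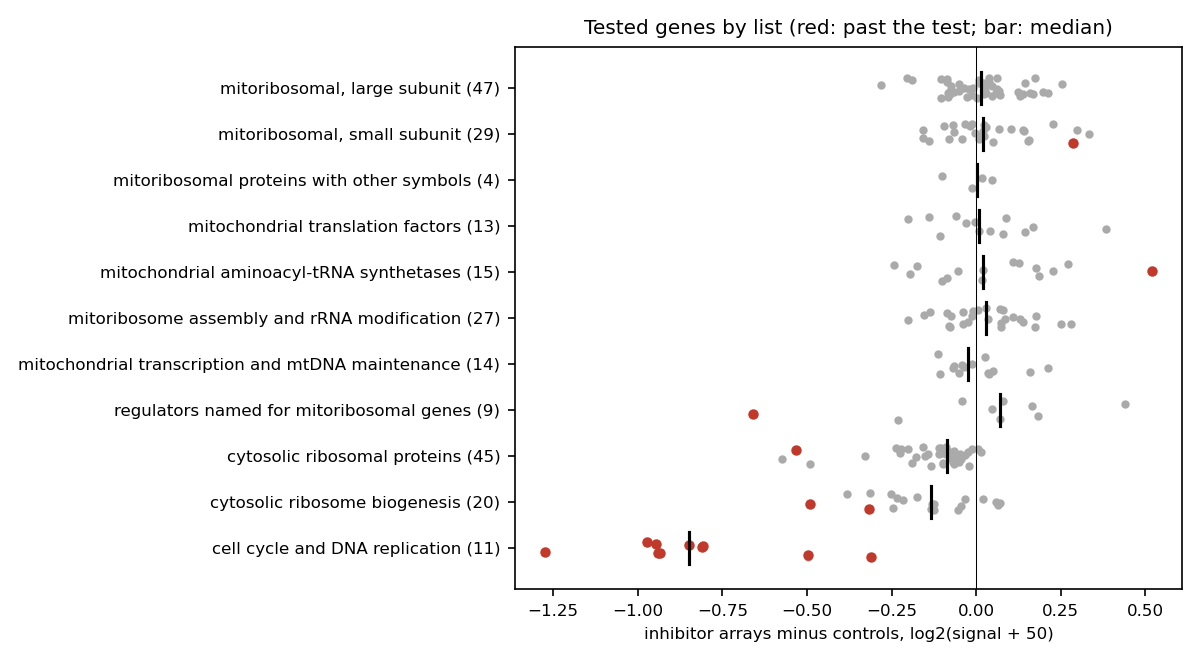
Difference of inhibitor arrays from vehicle arrays in log2(signal + 50) (x axis) for the tested genes of each list (y axis, number of genes in brackets). Points are genes, red where the limma adjusted p was under 0.05, and bars are medians, which lie near 0 for the mitochondrial lists and at -0.09, -0.13 and -0.85 for cytosolic ribosomal proteins, ribosome biogenesis and the cell cycle.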

How the data were processed

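The deposited intensity values are MAS5 signals per probe set, from MAS5 and Affymetrix Expression Console per the submitters' processing notes. The submitters' software versions and scan dates were not used here. Of 45101 probe sets, 34945 had 1 symbol in the platform annotation, 932 several and 9160 none, and 64 were array controls. Genes with a mean signal of at least 178.8 were tested as log2(signal + 50), an offset of 10% of the trimmed mean, which understates changes of dim genes.

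Linear models with an intensity trend in eBayes (limma 3.58.1, R 4.3.3) were fitted across 9097 genes, with 2 residual degrees of freedom for TC and S2101 together against vehicle (prior 8.08) and 1 for a fit with 3 groups (prior 8.37). TC and S2101 were treated as 2 samples of LSD1 inhibition by choice. The 4 arrays limit the precision. On simulated data with 200 of 9097 genes changed (20 draws), the inhibitor comparison recovered 13.1% of changes of 0.2, 40.5% of 0.3 and 77.8% of 0.5, with 6.5% of calls false. The comparison of TC with vehicle recovered 22.7% of changes of 0.3 and 63.8% of 0.5, with 8.97% of calls false. The simulation took its spread from the fit with 3 groups and gave TC and S2101 the same change. It therefore held no difference between the compounds, which adds to the spread of the real inhibitor comparison. It also changed fewer genes than the 729 called in the data, so these shares need not carry over.

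Named genes were members past any test, the 5 highest and lowest inhibitor differences per subunit, the 2 highest and lowest of each other comparison, members whose probe sets differ in sign by at least 0.2 on each side (0 genes), the S18 paralogs and proteins misplaced by symbol, and, of other lists, genes past the test or the 2 largest differences. Mrpl43, Ppargc1b, Gabpa, the TC value of Rbfa the split by other probe sets and the placing of Mrpl47 with the bacterial homologs were chosen after values were seen. Members and lists were chosen with earlier results of these data known. Promoters are RefSeq, GRCm38.p6, used for sequence and gene neighbours. Gene IDs of all 76 members matched the RefSeq gene table. Alternatives were other offsets, filters, scalings, probe set rules and variance priors, and leaving out each array.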

Additional observations from a re-analysis of the deposited data

Results flagged for a closer look

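In 17 members (22.4%, beside 12.8% of all tested genes) the TC array lay beyond both vehicle arrays on one side and the S2101 array on the other. TC was the higher in 15 of them. In the large subunit, TC minus S2101 was 0.15 for Mrpl10, 0.22 for Mrpl13, 0.20 for Mrpl17, 0.23 for Mrpl20, 0.16 for Mrpl21, 0.085 for Mrpl4, 0.18 for Mrpl43 and 0.14 for Mrpl9. In the small subunit it was 0.17 for Mrps10, 0.12 for Mrps12, 0.18 for Mrps14, 0.085 for Mrps16, 0.21 for Mrps22, 0.18 for Mrps7 and 0.34 for Mrps9. The order was turned in Mrpl11 (-0.36), where the S2101 signal of 1952 was the highest and the TC signal of 1513 the lowest in the chosen probe set, and in Mrpl36 (-0.23), with 1204 for S2101 and 1020.2 for TC. Of the 17 members, 5 had other probe sets past the filter, and in 3 of these all of the others ran the opposite way. For Mrpl11 they gave 1209 with TC and 1160.1 with S2101, and 664 and 442. For Mrpl13 they gave 3286 with TC and 3667 with S2101, and 849 and 1446. Both others of Mrpl11 and the dimmer one of Mrpl13 are of the x_at type, which can take up signal from related transcripts. For Mrps14 the other gave 313 with TC and 413 with S2101. Those of Mrpl9 and Mrps9 kept the order. The dimmer one of Mrps9, with 450 for TC and 287 for S2101, is of the x_at type too. Of the 17 members, 0 passed the limma test of TC against S2101, which only 0.033% of all tested genes passed.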

How the results depend on the processing

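Over all genes, the inhibitor comparison gave 266 calls with no filter on dim genes, 457 with a filter at the 75th percentile gene, 478 with probe sets averaged and 423 without the intensity trend, and 501 to 749 with an array left out, against 729. With no filter and without the trend, TC gave 12 and 83 calls, S2101 gave 8 and 112, and TC against S2101 gave 0 in both, whereas the last gave 13 after quantile normalization, 10 after centring and 22 with probe sets averaged. The single small subunit call of the inhibitor comparison became 0 with no filter, with probe sets averaged and without the trend, and 0 to 2 with an array left out, where the large subunit gave 0 to 1 lower. For TC the large subunit call (lower) became 0 and the small subunit calls (higher) 0 with no filter and without the trend. With probe sets averaged, TC gave 1 large subunit call higher and 0 lower and 1 small subunit call, and with the 75th percentile filter 1 small subunit call.

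The large subunit median of the inhibitor comparison was -0.00208 after centring, 0.0256 with probe sets averaged and -0.0207 to 0.0549 with an array left out, and the small subunit median was -0.041 to 0.0819 with an array left out. For TC the large subunit median was 0.0455 after quantile normalization, 0.0338 after centring and 0.0364 with probe sets averaged. For S2101 it was -0.0307 after centring, 0.00801 with probe sets averaged and -0.0355 to -0.0207 with an array left out, and the small subunit median was -0.00349 with probe sets averaged. For TC minus S2101 the large subunit median was 0.0786 with an offset of 50%, 0.0824 after quantile normalization, 0.0817 after centring and 0.0512 with probe sets averaged. With probe sets averaged, inhibitor differences turned to 0.0758 (Mrpl33), 0.0482 (Mrps11), 0.0901 (Mrps24) and 0.047 (Mrps15), the TC difference of Mrps24 to 0.135, the S2101 difference of Mrps11 to 0.0434 and TC minus S2101 of Mrpl11 to 0.0718. With an array left out, inhibitor differences ran from -0.00747 to 0.345 for Mrpl55, from -0.196 to 0.00399 for Mrps35, from -0.184 to 0.0256 for Mrps22, from -0.0368 to 0.169 for Mrps18c and from -0.0981 to 0.419 for Tefm. Averaging brings in dim probe sets under the filter for some of these genes. Mrps24 has none of these, and its probe sets, both past the filter, gave inhibitor differences of -0.16 and 0.34. The cause of the turns was not tested. Scaling alternatives moved the median of all genes by less than 0.1 on the log2 scale.

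In the simulated data, changes of 0.2 were mostly beyond reach of the test. In the comparisons of 1 compound, leaving out a control left no residual degrees of freedom and gave values with no test. No paired analysis was possible because the labels give the TC and S2101 samples no replicate number and each has 1 array.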
